A study of Bos taurus with 38 samples.

Results

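The genes described are 24 nuclear genes whose products work in mitochondria, measured by RNA-Seq in the *Longissimus dorsi* (LD) muscle of 38 newborn calves. They were taken by name. A gene was a member if its symbol began with a prefix of respiratory complex subunits (NDUF, SDH, UQC, COX with a digit, ATP5), of mitochondrial ribosomal proteins (MRPL, MRPS), of import translocases (TIMM, TOMM) or of mitochondrial carriers (SLC25), and if it averaged at least 1 CPM (counts scaled to the total of the library) over the calves. Symbols were paired with Ensembl gene IDs for 2880 of the 27607 genes counted. All 24 genes that matched a prefix passed the CPM limit, and the lowest was SLC25A53 at 2.25 CPM on average. No SDH or COX gene was among them.

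By role the members were 3 genes of the respiratory chain and ATP synthase (ATP5MC3, NDUFA4L2, UQCC1), 7 named as mitochondrial ribosomal proteins (MRPL15, MRPL22, MRPL35, MRPL48, MRPS25, MRPS28, MRPS36), 4 linked to protein import (TIMM8A, TOMM34, TOMM40, TOMM40L) and 10 carriers (SLC25A1, A11, A13, A25, A28, A32, A33, A36, A42 and A53). The symbols came from tables of genes that the study had called different between a supplemented group and the control. The members were thus selected on measured values, the differences of group means between supplemented and CTR calves, so that their differences between TR1, TR2 or TR3 and CTR are given below as a description without a test. Sex of the calf and age of the dam were not used to choose them, and these were tested. The co-variation of genes among calves was not used directly and was tested too. A calf far from its group enters both the group means and the correlations, so the latter are not independent of the choice.

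The calves were born to pregnant beef cows. Cows of the control group (CTR, 10 calves, of which 4 were female) received no Se-yeast. The other cows received Se-yeast boluses, 105 mg Se per week for 13 weeks, in the first (TR1, 9 calves, 2 female), the second (TR2, 10 calves, 3 female) or the third trimester (TR3, 9 calves, 5 female). All cows, CTR included, also had a mineral supplement with sodium selenite at 120 mg Se per kg. Dams were 5 to 9 years old. Sex was taken from the sample labels, which give 4 females in CTR, while the paper counts 3 among its 10 CTR calves. The files used here did not settle which is right. One muscle biopsy per calf was taken within days of birth, so that each library is 1 animal and the groups differ in the dam's treatment.

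Mitochondria make most of the ATP of resting and slowly working muscle. Electrons pass along the complexes of the inner membrane, protons are pumped out, and ATP synthase uses their return flow. Only a few of the subunits are encoded in mitochondrial DNA and made on mitochondrial ribosomes. The others, the ribosomal proteins among them, are made in the cytosol and enter through the TOM complex of the outer and the TIM complexes of the inner membrane. Carriers of the SLC25 family then exchange nucleotides, cofactors and metabolites such as citrate, 2-oxoglutarate and aspartate across the inner membrane.

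Total counts ran from 12921223 to 17471666 per calf, and all 24 members were among the 12964 genes tested. Markers of skeletal muscle fibres (11 of 11 measured, none at 0 in every calf) summed to between 49676 and 196349 CPM. Lists for leukocyte (7 genes), erythroid (4), adipocyte (3), fibroblast (6), endothelial (2), smooth muscle (3) and Schwann cells (4) each summed to at most 1243 CPM in any calf, and none of their genes was at 0 in every calf. One library stood apart in fibre markers and scaling. TR1 calf 5 had the lowest fibre marker sum (49676 CPM, against 84950 in the next lowest calf and 119621 to 194956 in CTR) and the highest TMM scaling factor (1.35, against 0.887 to 1.16 in the other calves). Its NAMPT level was 628 CPM, and TR2 calves 9, 1 and 10 had 635, 619 and 289, while the next calf had 130.0. NAMPT makes an NAD precursor. Over all genes tested, 2 calves stood apart. With TMM, TR1 calf 5 was the lowest calf in 13.2% and the highest in 12.7% of genes. TR2 calf 1 was so in 12.0% and 11.6%, and the other calves in at most 5.33% and 6.49%. Calf numbers are names only. Each printed difference from CTR that moved by over 1.5 times without TR1 calf 5 or without the 4 calves is given with and without them, and the choice of the 4 was made after seeing the data. In whole muscle, fewer cells of a type and less RNA per cell cannot be told apart.

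Low values of the members gathered in a few calves. Supplemented calves enter the group means that chose the members, so the counts below are a description and not a test. All genes tested, given beside them, were not chosen in that way. In TR1 calf 5, all 14 members other than carriers lay below the lowest CTR calf, while 25.0% of all genes tested did so. In TR2 calf 8, 12 of the 14 were below that level (15.2% of all genes). The count was 11 of 14 in TR2 calf 9 (19.6%), 9 in TR2 calf 10 (19.7%) and 7 in TR2 calf 1 (24.6%). In the other calves it was 0 to 7, the 7 being in TR3 calf 9 (9.02% of all genes). Carriers did not share this direction. Of the 10, in TR1 calf 5, 3 lay below the lowest CTR calf and 3 above the highest.

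Outside the carriers, the size of the shift was similar across roles in TR1 calf 5 and differed in some TR2 calves. In TR1 calf 5 the mean log2 CPM lay below the CTR mean by 1.60 over the respiratory members, by 1.47 over the ribosomal members and by 1.51 over the import members. The carriers of this calf averaged 0.19 above it, but that mean rested on SLC25A33. Single carriers ran from -2.75 in SLC25A25 to 4.36 in SLC25A33. TR2 calf 9 fell by 1.09, 0.70 and 0.82 in the same order. TR2 calf 8 was lowest in the ribosomal members (-1.03) and less so in the respiratory ones (-0.49). That respiratory mean joined -1.27 in ATP5MC3, -0.64 in UQCC1 and 0.45 in NDUFA4L2, a gene of low count on which the contrast leaned. The respiratory mean was the lower one in TR2 calf 10 (-1.13 respiratory, -0.24 ribosomal) and TR2 calf 1 (-0.87 and -0.28). These ribosomal means joined members of opposite direction. In TR2 calves 10 and 1, MRPL15 was at 0.61 and 0.85 and MRPS36 at -0.75 and -1.26. The respiratory means of these 2 calves included NDUFA4L2 at -1.35 and -0.49. Over the other 33 calves the respiratory mean did not fall lower than -0.27, in CTR calf 5. TR2 calf 8, with 128 CPM of NAMPT, was not among the calves high in that gene, and its fibre marker sum was 108598 CPM. With TMM, TR1 calf 5 was the lowest of all calves in 12 of 24 members, and with scaling by library size in 7. Over all genes tested it was lowest in 13.2% and 5.41%, and highest in 12.7% and 31%, in the same order. In TR2 calves 8, 9, 10 and 1 the count of lowest members rose, from 2, 0, 1 and 0 to 3, 1, 2 and 1. The shifts and the counts below CTR were computed with TMM only, so their dependence on scaling was not tested. The part that fibre content and NAMPT have in these values was not tested.

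**Figure D1:**
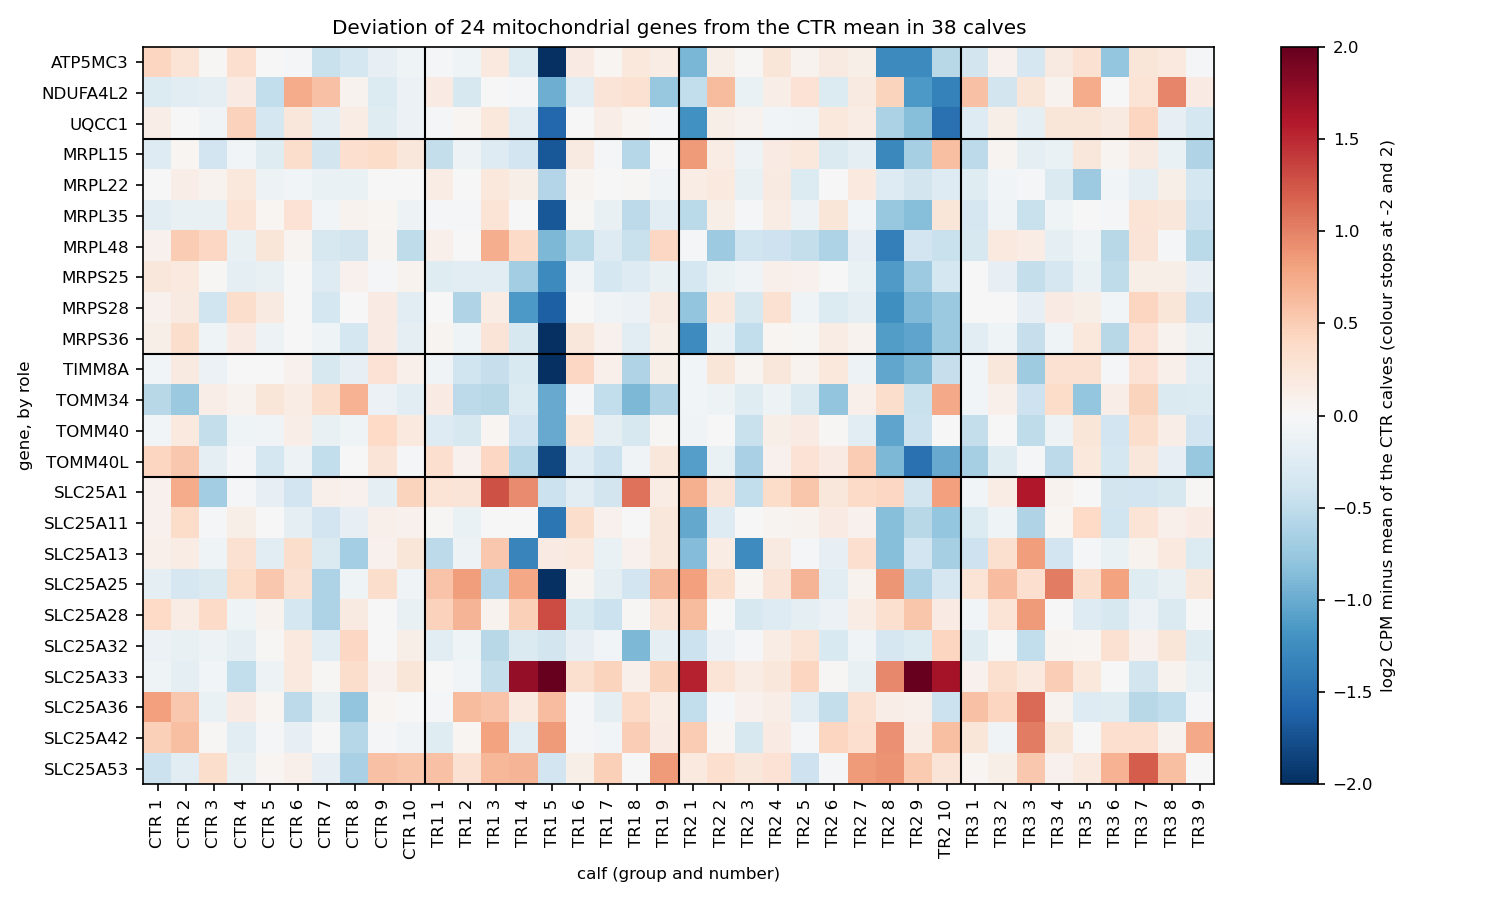
Log2 CPM of each of the 24 genes (rows, by role) in each of the 38 calves (columns, by group and calf number), as the difference from the mean of the 10 CTR calves. Blue cells lie below that mean: TR1 calf 5 is blue in all 14 genes of the upper 3 blocks and dark red in SLC25A33.

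ATP5MC3 and UQCC1 were lower in a few supplemented calves, while their group medians stayed close. ATP5MC3 encodes the c subunit that forms the rotating ring of ATP synthase. Its level was 490 to 902 CPM in CTR (median 662), 139 to 776 in TR1 (683), 276 to 791 in TR2 (689) and 389 to 825 in TR3 (706). The medians were thus slightly higher in all 3 supplemented groups, and the 3 lowest calves were TR1 calf 5 and TR2 calves 9 and 8. The fitted log2 fold change was -0.09 ± 0.22 (SE) for TR1, -0.26 ± 0.21 for TR2 and 0.02 ± 0.23 for TR3. Without the 4 calves high in NAMPT it was 0.05, -0.04 and -0.03.

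UQCC1 is an assembly factor of respiratory complex III. It was at 44.2 to 77.3 CPM in CTR (median 54.9), 18.9 to 64.9 in TR1 (56.8), 20.0 to 65.4 in TR2 (54.0) and 44.1 to 75.6 in TR3 (60.7). Its 5 lowest calves were TR1 calf 5 and TR2 calves 10, 1, 9 and 8. The TR2 difference of -0.28 ± 0.18 came to -0.02 without the 4 calves. NDUFA4L2, a paralog of the complex IV subunit NDUFA4 that is induced by hypoxia in other tissues, was near the low end of what was measured. It had 1.89 to 4.64 CPM in CTR (median 2.43), 1.32 to 3.40 in TR1 (2.65), 0.978 to 4.29 in TR2 (2.73) and 2.07 to 5.46 in TR3 (3.24). In TR3, the level of 8 of 9 calves exceeded the CTR median (log2 fold change 0.27 ± 0.24). The gene overlaps SHMT2 in the RefSeq annotation, so reads could be shared.

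Of the ribosomal members, 7 of 7 had a negative fitted difference for TR1, and 6 of 7 had one for TR2 as for TR3. Without TR1 calf 5 the TR1 count was 4 of 7, with MRPL22, MRPL48 and MRPS36 then positive. Scaling by library size alone turned MRPL22 and MRPL48 positive in TR1 and MRPL15 negative in TR2, and it turned MRPS36 positive in TR3. MRPL48, a protein of the large subunit, showed the largest of these. It ran from 17.5 to 35.7 CPM in CTR (median 26.1), 13.3 to 41.7 in TR1 (25.0), 9.61 to 24.4 in TR2 (18.6) and 17.1 to 30.1 in TR3 (23.5). All 10 TR2 calves lay below the CTR median, yet the ranges overlapped. The TR2 difference was -0.51 ± 0.17 on the log2 scale. It was -0.59 without the 4 calves high in NAMPT, and -0.57 to -0.44 with any 1 calf left out. The smallest of these, -0.44, came without TR2 calf 8, which held the lowest level (9.61 CPM) and is not among the 4. A fit without the 4 and that calf together was not run. MRPL48 was chosen on this same difference, so these values describe it and do not test it.

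MRPS25, a protein of the small subunit, was at 50.7 to 71.2 CPM in CTR (median 61.1), 25.0 to 57.5 in TR1 (51.0), 27.4 to 65.3 in TR2 (55.1) and 42.4 to 65.6 in TR3 (54.3). All 9 TR1 calves were below the CTR median. The TR1 difference was -0.36 ± 0.14, or -0.27 without TR1 calf 5. The gene overlaps a long non-coding RNA and a pseudogene in RefSeq and is uncertain to that extent.

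MRPS36 carries a ribosomal name and is now also known as a subunit of the 2-oxoglutarate dehydrogenase complex. CTR calves had 107 to 175 CPM (median 132), TR1 24.6 to 163 (141), TR2 56.6 to 151 (111) and TR3 93.0 to 166 (128). The next 4 calves after TR1 calf 5 were TR2 calves 1, 8, 9 and 10, at 56.6, 62.4, 65.6 and 80.9 CPM. The TR2 difference of -0.39 ± 0.20 was -0.17 without the 4 calves high in NAMPT, 3 of which are in TR2.

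The other ribosomal members moved less or varied more. MRPS28 had medians of 19.9 CPM for CTR, 18.3 for TR1, 15.7 for TR2 and 19.3 for TR3, with differences of -0.25 ± 0.19, -0.36 ± 0.18 and 0.10 ± 0.20. Without TR1 calf 5 the TR1 and TR3 values were -0.12 and 0.02, and without the 4 calves the TR2 value was -0.18. MRPL15 had medians of 85.1, 71.8, 87.7 and 78.1 CPM in the same order. It parted from MRPS36 in TR2 calf 1, where MRPL15 reached 155 CPM, the highest of the 38 calves, while MRPS36 was at its TR2 lowest. MRPL35 had medians of 49.3, 49.0, 48.2 and 47.1 CPM, which lay close together. MRPL22 had medians of 26.6, 27.0, 25.3 and 23.2 CPM, and 8 of 9 TR3 calves were below the CTR median (log2 fold change -0.20 ± 0.11). MRPL22 also overlaps a pseudogene.

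The 4 import members had negative fitted differences in TR1 and TR2 in the fit on all calves. TOMM40L turned positive in TR1 without TR1 calf 5 (0.04), and TOMM34 in TR2 without CTR calf 8 (0.02). TOMM34, a cytosolic co-chaperone that binds precursor proteins, changed most in TR1. It had 2.49 to 6.99 CPM in CTR (median 4.60), 2.05 to 4.79 in TR1 (2.94), 2.43 to 7.34 in TR2 (3.98) and 2.44 to 5.87 in TR3 (4.14). In TR1, 8 of 9 calves lay below the CTR median. The difference was -0.47 ± 0.20, and it was -0.57 to -0.40 with any 1 calf left out.

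TOMM40 forms the pore of the TOM complex, and TOMM40L is its paralog. TOMM40 had medians of 74.2 CPM for CTR, 64.6 for TR1, 75.5 for TR2 and 72.1 for TR3, with a lowest value of 37.1 in TR2 calf 8. TOMM40L had medians of 34.9, 34.4, 27.8 and 30.5 CPM, and fell to 10.1 CPM in TR1 calf 5 and 12.7 in TR2 calf 9. Its TR2 difference of -0.33 ± 0.22 was -0.07 without the 4 calves. It overlaps NR1I3 in RefSeq. TIMM8A, a small chaperone of the space between the membranes, had medians of 42.8, 34.6, 43.0 and 46.1 CPM, and ran from 9.27 (TR1 calf 5) to 57.3 (TR1 calf 6) within TR1 alone.

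**Figure D2:**
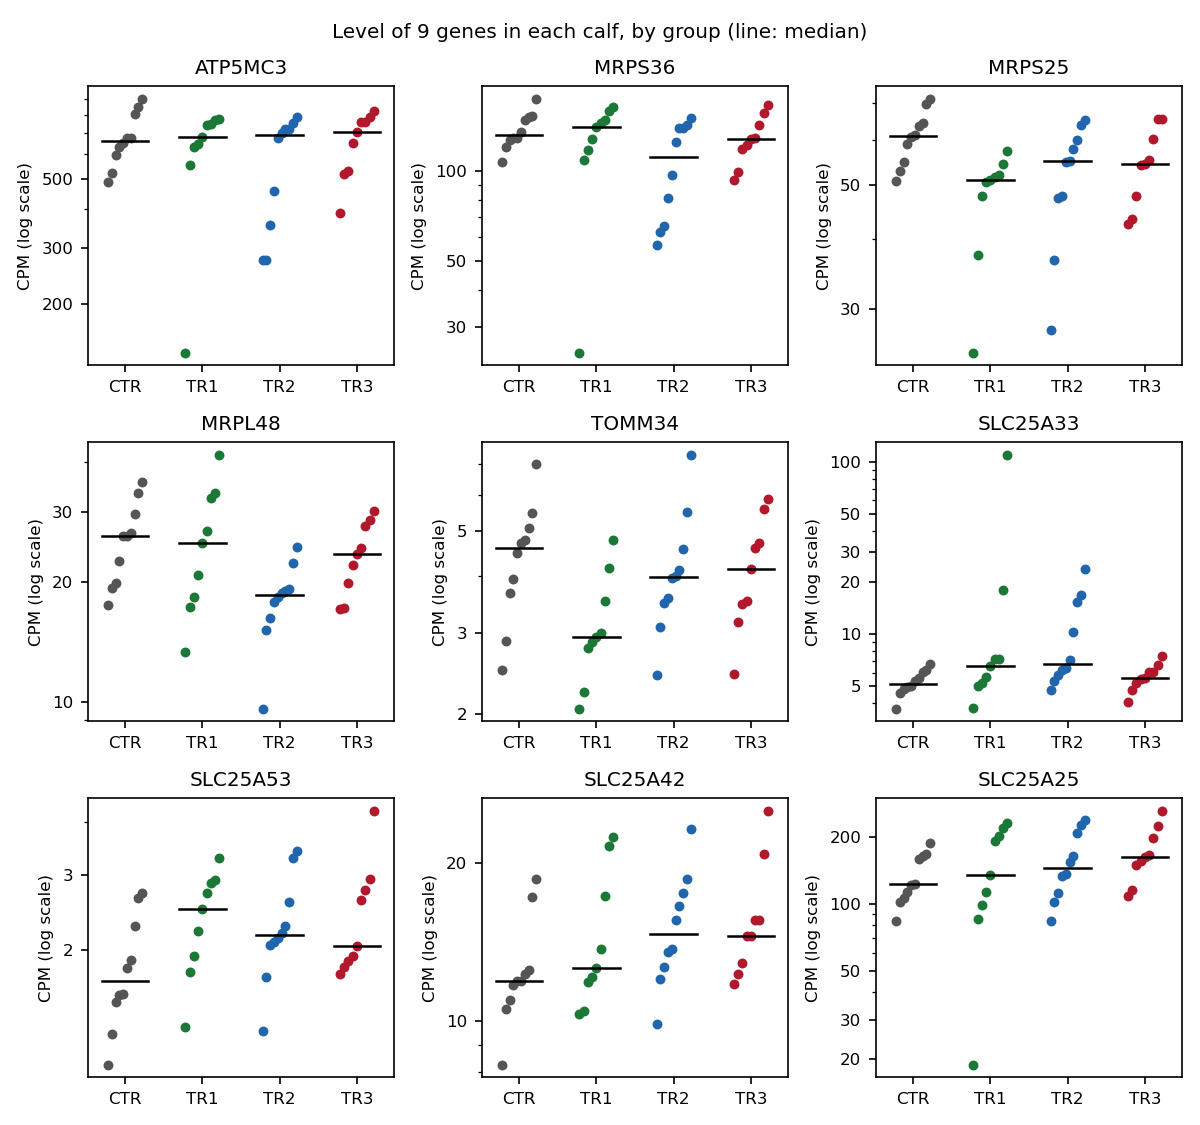
CPM on a log axis of 9 of the genes in each calf (points, ordered by level within a group), with the group median as a line. SLC25A33 reaches 110 CPM in TR1 calf 5, and MRPL48 lies below the CTR median in all 10 TR2 calves.

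Among the carriers, SLC25A33 differed most. It and SLC25A36 carry pyrimidine nucleotides, which mitochondrial DNA and RNA synthesis need. SLC25A33 was at 3.70 to 6.75 CPM in CTR (median 5.18), 3.73 to 110 in TR1 (6.55), 4.73 to 24.1 in TR2 (6.75) and 4.04 to 7.46 in TR3 (5.54). The level exceeded 10 CPM in TR1 calves 5 (110) and 4 (18.1) and in TR2 calves 9 (24.1), 10 (16.9), 1 (15.5) and 8 (10.4), and in no CTR or TR3 calf. The fitted log2 fold change was 1.32 ± 0.45 in TR1 and 1.15 ± 0.42 in TR2. It was 0.46 in TR1 without calf 5, and 0.46 and 0.31 without the 4 calves high in NAMPT. In TR3 it was -0.23 ± 0.45, although 7 of 9 TR3 calves exceeded the median of CTR, and 0.07 without TR1 calf 5, a female calf of a dam of 5 years whose level enters the terms for sex and dam age.

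SLC25A36 had medians of 20.8 CPM for CTR, 23.7 for TR1, 21.1 for TR2 and 20.4 for TR3, with differences of 0.20 ± 0.19, -0.13 ± 0.18 and 0.13 ± 0.19. None of these held in size: the TR1 value was 0.098 without TR1 calf 5, the TR2 value was -0.009 without the 4 calves and -0.03 without CTR calf 1, and the TR3 value was -0.04 without TR3 calf 3.

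SLC25A53, a carrier with no known substrate, had a higher median in all 3 supplemented groups than in CTR. It had 1.08 to 2.72 CPM in CTR (median 1.70), 1.32 to 3.30 in TR1 (2.50), 1.29 to 3.43 in TR2 (2.17) and 1.76 to 4.26 in TR3 (2.05). Above the CTR median were 8 of 9 TR1, 9 of 10 TR2 and 9 of 9 TR3 calves. The differences were 0.40 ± 0.21, 0.34 ± 0.20 and 0.42 ± 0.22. These 3 values share the CTR calves, whose low level enters each. The gene overlaps ZCCHC18.

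SLC25A42 imports coenzyme A. It was at 8.25 to 18.6 CPM in CTR (median 11.9), 10.3 to 22.4 in TR1 (12.6), 9.84 to 23.3 in TR2 (14.6) and 11.7 to 25.2 in TR3 (14.5). The differences were 0.17 ± 0.17, 0.27 ± 0.16 and 0.33 ± 0.17. The TR1 value was 0.03 without TR1 calf 5, whose 22.4 CPM was the TR1 maximum. SLC25A25 exchanges ATP-Mg for phosphate and is regulated by calcium. It had 83.7 to 187 CPM in CTR (median 122), 18.9 to 229 in TR1 (134), 83.9 to 237 in TR2 (145) and 108 to 261 in TR3 (161). The TR3 difference of 0.34 ± 0.28 was positive with any 1 calf left out (0.19, without TR3 calf 4, to 0.41). TR1 calf 5 was the lowest of all calves, while TR1 calf 2 held the TR1 maximum. SLC25A25 overlaps NAIF1.

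SLC25A1, which exports citrate for fatty acid synthesis, had medians of 34.2 CPM for CTR, 40.4 for TR1, 43.7 for TR2 and 33.7 for TR3. In TR3 its difference of 0.19 ± 0.26 turned to -0.15 without TR3 calf 3, which had 102 CPM. SLC25A11, the oxoglutarate carrier of the malate-aspartate shuttle, went with the respiratory members. It had medians of 402, 393, 361 and 400 CPM and a lowest value of 144 in TR1 calf 5. SLC25A13, the aspartate/glutamate carrier of the same shuttle, had medians of 10.7, 10.7, 8.30 and 9.76 CPM. Its TR2 difference of -0.31 ± 0.20 was -0.17 without the 4 calves.

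SLC25A28 (mitoferrin 2, an iron carrier) had medians of 14.5, 16.9, 14.8 and 13.6 CPM and was highest in TR1 calf 5 (35.0). Its TR1 difference of 0.30 ± 0.19 was 0.11 without that calf. SLC25A32, which carries folate and FAD, was at 10.9 to 16.9 CPM in CTR (median 12.2) and 6.72 to 12.1 in TR1 (10.8), with medians of 11.8 in TR2 and 12.9 in TR3. All 9 TR1 calves lay below its CTR median, and the TR1 difference was -0.25 ± 0.11, or -0.24 without calf 5.

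Over the 24 members the fitted difference was positive in 7 and negative in 17 for TR1 and again for TR2, and positive in 13 and negative in 11 for TR3. Of all genes tested 50.4%, 51.3% and 47.2% were positive. The median over the members was -0.06 for TR1, -0.12 for TR2 and 0.02 for TR3, against 0.00, 0.01 and -0.01 over all genes. Scaling by library size gave 12, 6 and 14 positive members and a TR1 median of -0.01. The TR1 median rested on 1 calf: without calf 5 it was 0.044, with 15 members positive, and 8 members changed sign. Without the 4 calves the medians were 0.03, -0.05 and -0.01. No member separated a supplemented group from CTR without overlap, nor did any gene tested (0% in each comparison).

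On the scale that chose the members, the difference of variance-stabilized group means centred and divided by its SD over genes, 13 members passed 1.5 in size in TR1, 10 in TR2 and 6 in TR3. By construction every member passed somewhere: 19 did in 1 comparison, 5 in 2 and 0 in all 3. The shares of all genes past 1.5 were 10.6%, 10.4% and 10.9%. Just inside the limit in TR1 was SLC25A36 (1.51) and just outside SLC25A53 (1.43). In TR2 these were SLC25A1 (1.51) and MRPS25 (-1.37), and in TR3 MRPL22 (-1.56) and MRPS25 (-1.37). This scale does not use the spread between calves. edgeR's quasi-likelihood test called 0 of 12964 genes at an adjusted p of 0.05 in each comparison (0%). At an unadjusted p under 0.05 it gave 331 genes in TR1 (2.55%), 1081 in TR2 (8.34%) and 175 in TR3 (1.35%), and DESeq2 called 0, 1 and 0.

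**Figure D3:**
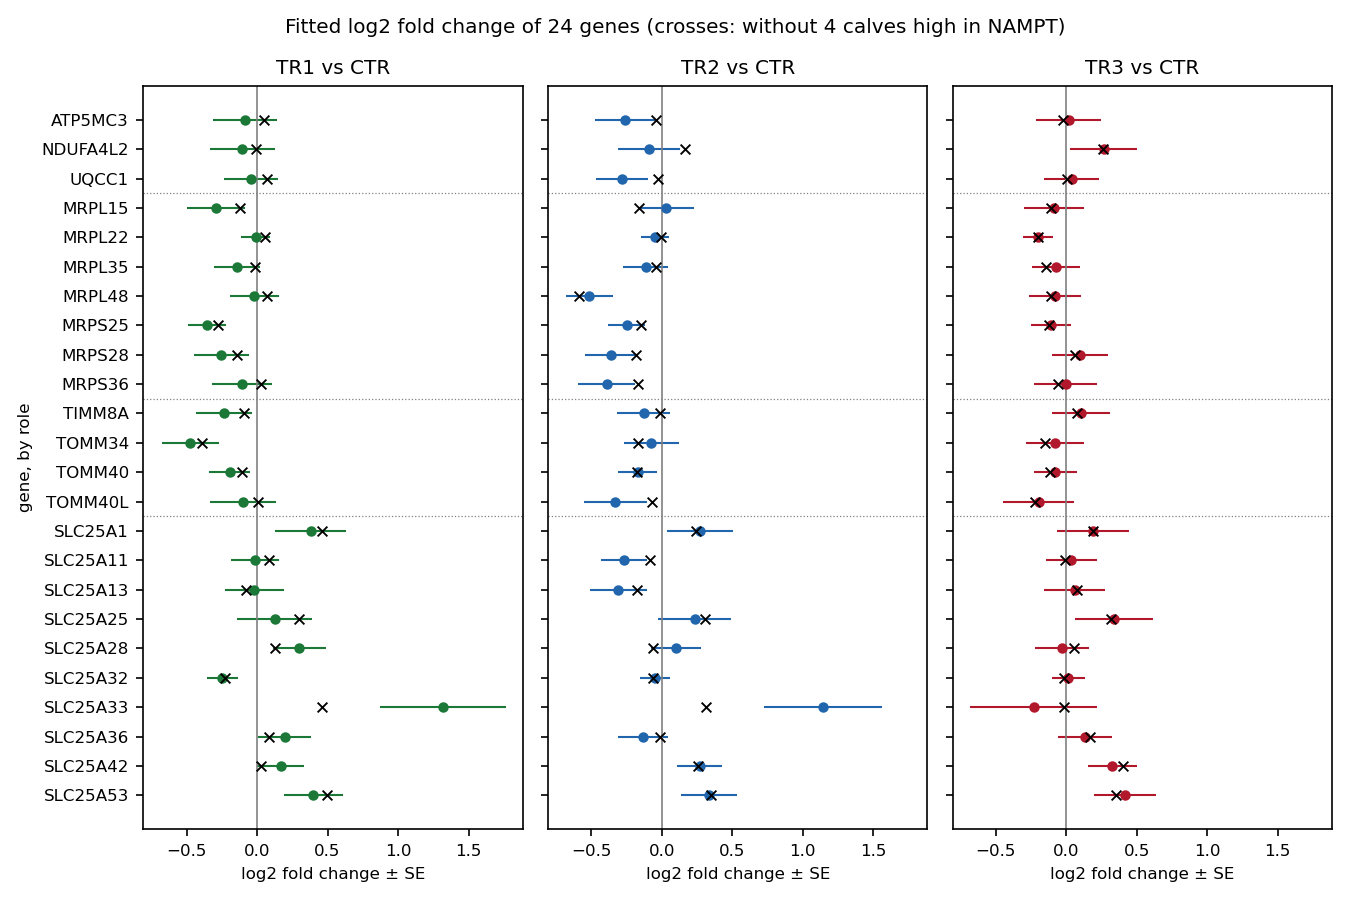
Fitted log2 fold change (points) with its SE (bars) of the 24 genes in TR1, TR2 and TR3 vs. CTR, by role. Crosses give the value without the 4 calves high in NAMPT: SLC25A33 moves from 1.32 to 0.46 in TR1, and MRPL48 in TR2 from -0.51 to -0.59.

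Sex of the calf was a comparison that the choice of members did not use (14 females, 24 males). Of 24 members, 0 were called between females and males by edgeR (adjusted p of 0.05), against 0.0309% of all genes, 4 in number. DESeq2 also called 0 members, but it gave no adjusted p for NDUFA4L2, SLC25A53 and TOMM34. Fitted differences were positive, that is higher in females, in 12 (49.1% of all genes) and negative in 12. This split rested on TR1 calf 5, a female: without it 19 were positive and 5 negative. In the fit on all calves 2 members had an unadjusted p under 0.05 (8.33% of members, 6.61% of all genes). SLC25A33 had 3.70 to 110 CPM in females (median 6.15) and 3.73 to 24.1 in males (median 5.61). Its difference was 0.80 ± 0.32 (edgeR adjusted p = 0.645) and 0.10 without TR1 calf 5. SLC25A36 had 11.9 to 31.9 CPM in females (median 18.97) and 14.7 to 45.4 in males (22.05), with a difference of -0.29 ± 0.14 (edgeR adjusted p = 0.732). The sexes overlapped in both genes.

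Dam age likewise gave 0 called members (0% of all genes), with 0 members at an unadjusted p under 0.05 against 3.36% of all genes, and 0 by DESeq2. The slope per year of dam age was positive in 17 members and negative in 7, and 48.4% of all genes were positive. Slopes ran from -0.22 to 0.08 on the log2 scale. The lowest was that of SLC25A33 (-0.22 ± 0.13 per year, edgeR adjusted p = 0.993), which was -0.01 without TR1 calf 5. The other 23 were at most 0.08 in size, and the highest was that of MRPS36 (0.08 ± 0.06, or 0.03 without TR1 calf 5). Without that calf the slope was positive in 12 members and negative in 12.

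**Figure D4:**
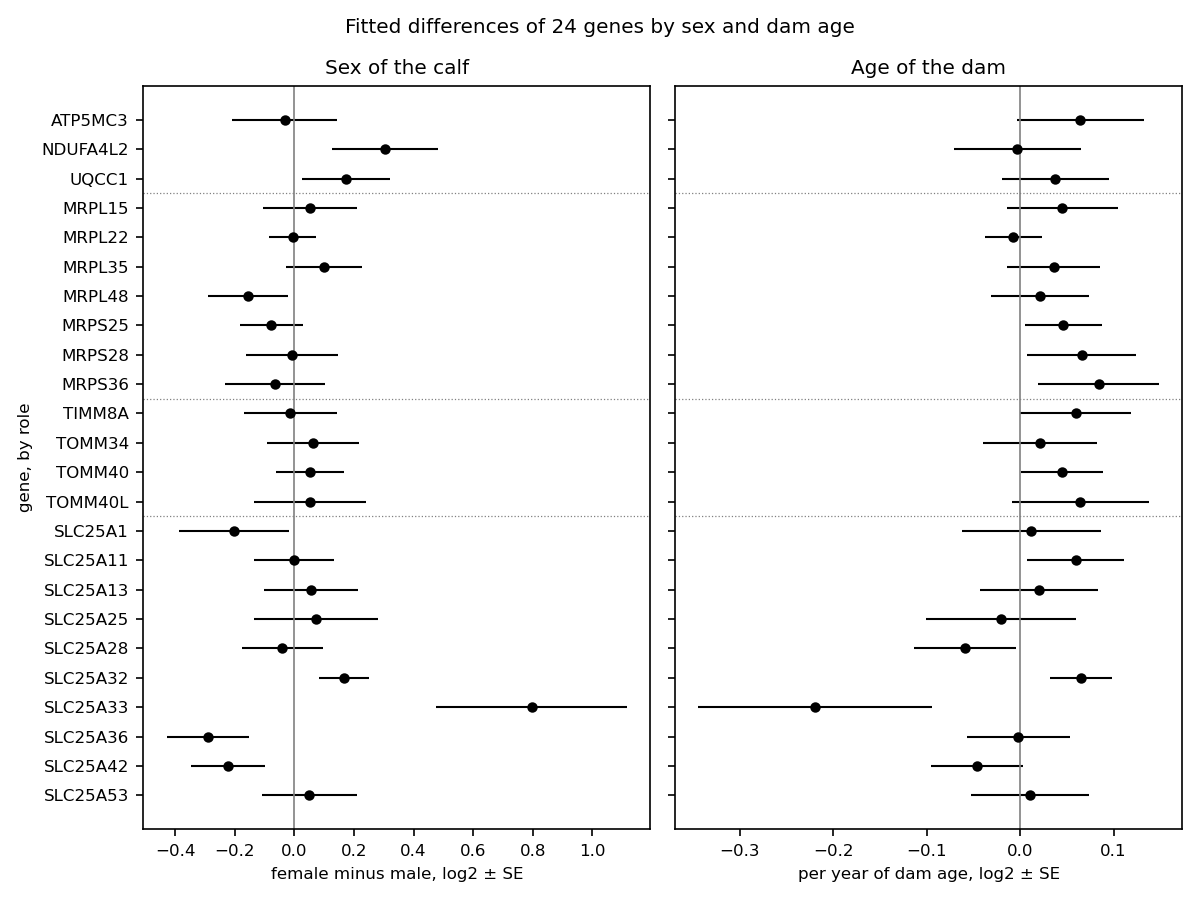
Fitted log2 difference between female and male calves (left) and log2 change per year of dam age (right) for the 24 genes, as points with SE bars. SLC25A33 lies farthest from 0 in both panels, at 0.80 and -0.22, and both values rest on 1 calf.

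Most of the gene pairs tested rose and fell together among calves. After removal of group, sex and dam age, 8 gene pairs were tested over the 38 calves, and 6 were correlated (permutation test, two-sided, adjusted over the 8 pairs). The share of all gene pairs that would pass this test was not computed, so the count cannot be read as particular to these genes. ATP5MC3 and UQCC1 had r = 0.79 (adjusted permutation p = 2e-05) and rho = 0.81 (2.67e-05). Without the 2 calves farthest from the median of ATP5MC3 (TR1 calf 5 and TR2 calf 9) r was 0.66. The import genes TOMM40 and TIMM8A had r = 0.77 (adjusted permutation p = 2e-05) and rho = 0.72, with r = 0.66 without TR1 calf 5 and TR2 calf 8.

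MRPS25 and MRPS28, both of the small ribosomal subunit, had r = 0.77 (adjusted permutation p = 2e-05) and rho = 0.69, with r = 0.65 without TR1 calf 5 and TR2 calf 8. MRPL15 and MRPL48 of the large subunit were less alike. Their r of 0.44 passed (adjusted permutation p = 0.00664), but rho of 0.29 did not (0.106), and r was 0.17 without the same 2 calves (unadjusted permutation p = 0.327), so that the relation rested on them. TOMM40 and its paralog TOMM40L had r = 0.58 (adjusted permutation p = 9.6e-05) and rho = 0.54 (0.00109), with r = 0.47 without those calves.

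The carriers paired otherwise. SLC25A33 and NAMPT had r = 0.80 (adjusted permutation p = 2e-05) and rho = 0.58 (0.0004). Without TR1 calf 5 and TR2 calf 9, r was 0.65, and without the 4 calves highest in NAMPT it was 0.34 and not past the threshold. Those 4 calves also enter the group differences that chose SLC25A33, so this result is not independent of the choice. The pyrimidine carriers SLC25A33 and SLC25A36 had r = 0.11 (adjusted permutation p = 0.519) and rho = 0.03. SLC25A1 and ACACB, an acetyl-CoA carboxylase that makes malonyl-CoA from acetyl-CoA, had r = 0.13 (adjusted permutation p = 0.489) and rho = 0.00. The smallest unadjusted p that the permutations could give was 1e-05, reached by r in 4 pairs.

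As a description, r was positive in 82 of the 91 pairs among the 14 members other than carriers, with a median of 0.51. Over all pairs of genes tested the median was -0.00, with 49.8% positive, and all pairs share the libraries, their scaling and their depth. Genes in those pairs were not chosen on group differences, as the members were. Without TR1 calf 5 the median of the 91 pairs was 0.31 and 75 were positive. The highest value was 0.93, between ATP5MC3 and MRPS36. Among the 21 pairs of ribosomal members r ran from 0.35 to 0.83, or from 0.11 to 0.73 without TR1 calf 5. TOMM34 had low values with the others of its role, with r = -0.04 to TOMM40, -0.14 to TOMM40L and 0.12 to TIMM8A.

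Among the 45 pairs of carriers the median r was 0.00. SLC25A11 went with the 14 members other than carriers (median r = 0.68, positive with 13 of 14, and 0.53 without TR1 calf 5). SLC25A33 went against them: its r was below 0 with 14 of 14, from -0.87 to -0.09, with a median of -0.68. Without TR1 calf 5 this was -0.46, with 2 of 14 positive. SLC25A28 also leaned against them (median -0.51, or -0.32 without that calf). The median residual SD of the members was 0.43 on the log2 scale, against 0.37 over all genes tested.

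**Figure D5:**
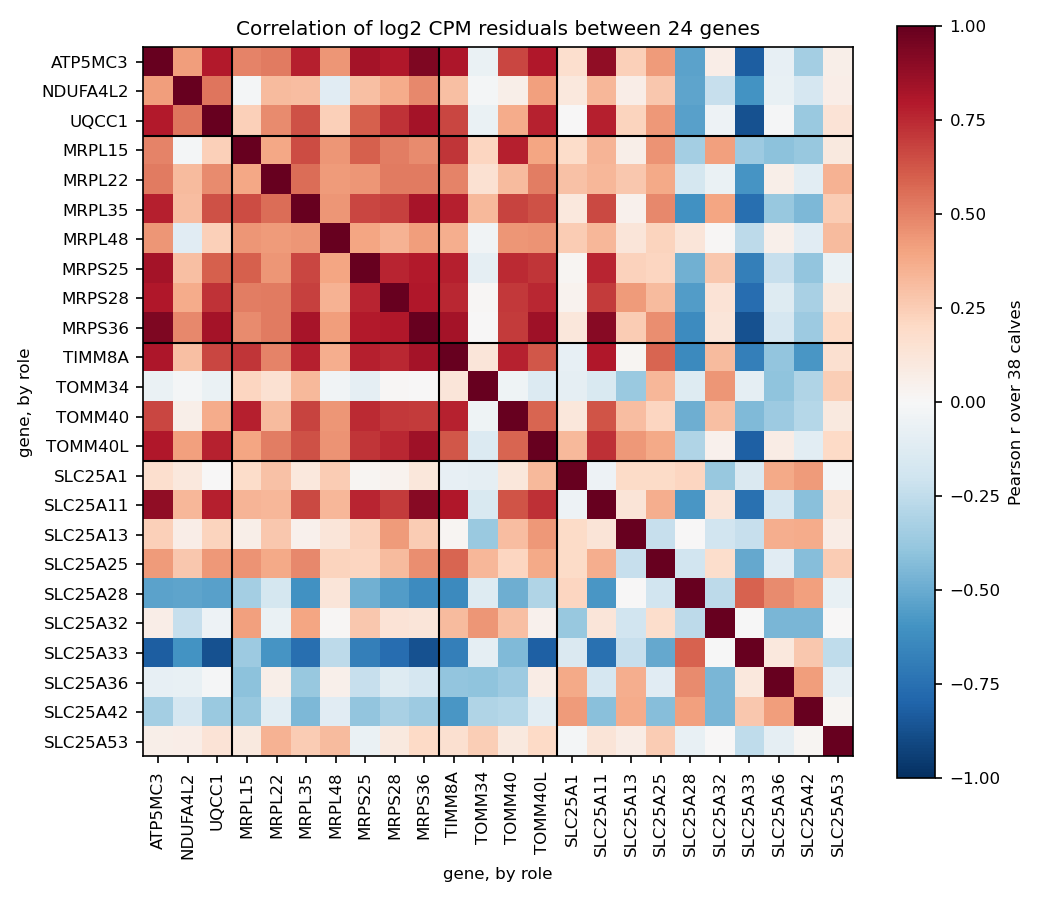
Pearson r over 38 calves between the log2 CPM residuals of the 24 genes, by role, with group, sex and dam age removed. The upper left block of 14 genes is mostly red (82 of 91 pairs positive), and the row of SLC25A33 is blue across it.

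Other genes of mitochondrial function were not called for sex or dam age either. The list held 69 genes outside the prefixes, drawn from the same symbols, and edgeR called 0 of them for sex and 0 for dam age, as did DESeq2. For sex, 3 had an unadjusted p under 0.05 (4.35%, against 6.61% of all genes). The smallest p belonged to UCP2, an uncoupling protein family member (76.3 CPM on average in females, 59.1 in males, log2 difference 0.52 ± 0.18, edgeR adjusted p = 0.571). COA6, which helps assemble complex IV, had a difference of -0.31 ± 0.13 (edgeR adjusted p = 0.696), and ACAT1 of ketone body use had -0.42 ± 0.20 (0.737).

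For dam age, 4 of the 69 had an unadjusted p under 0.05 (5.80%, against 3.36%), all with an edgeR adjusted p of 0.993. COQ2 of coenzyme Q synthesis had a slope of 0.20 ± 0.06 per year, and PDK4, the kinase that blocks pyruvate dehydrogenase, had -0.33 ± 0.15. ATP8, encoded in mitochondrial DNA, had -0.18 ± 0.08, and GABPB2, a subunit of the GABP regulator of mitochondrial genes, had -0.17 ± 0.08.

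Against CTR, the list had 29 positive and 40 negative differences for TR1 (median -0.07), 26 and 43 for TR2 (-0.09) and 31 and 38 for TR3 (-0.01). Within it, 8 of 8 genes of respiratory assembly and coenzyme Q synthesis were negative in TR2, with a median of -0.27. Negative in TR2 were also 9 of 12 of gene expression and translation, 2 of 2 of the mitochondrial genome and 7 of 8 of one-carbon and proline. The counts were 8 of 14 for import, shape and quality control, 7 of 17 for fuel use and 2 of 8 for regulators. No value without the 4 calves high in NAMPT is given for the list. These genes too came from the study's tables of the same contrasts.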

How the data were processed

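Poly(A) RNA of LD muscle biopsies was sequenced by the authors from strand-specific libraries, 1 per calf. Per the paper and the submitters' processing notes, reads were mapped with STAR 2.7.3a to ARS-UCD1.2 and counted per gene (Ensembl release 100). The deposited table holds raw counts. Which strand column was kept is not given in the sources used here, so overlapping genes are uncertain. The authors' tables of genes called different, which also hold fold changes, were used for the pairs of ID and symbol only.

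filterByExpr kept 12964 genes. CPM values are scaled by TMM. Fold changes came from edgeR 4.0.16 (quasi-likelihood, Benjamini-Hochberg over all genes) on all 38 calves with dam age, sex and group. DESeq2 1.42.0 was the alternative and gave the variance-stabilized values. Residuals of log2 CPM (prior count 2) were correlated with 100000 permutations. All members are named, with full values for the 3 largest differences in each group. Same-group calves differed beyond sampling noise (the smallest chi-square divided by its degrees of freedom was 17.0). On data simulated for the sex comparison, edgeR recovered 55 of 100 genes changed by 0.5 on the log2 scale and 84 of 100 changed by 1, with 3 false calls among 12964 genes.

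The members and lists were chosen with earlier results of these data known. Overlaps were read from RefSeq genes of ARS-UCD2.0, where 24 of 24 symbols matched, and no coordinates were used. Alternatives are listed with their effect after the results. One result for a single gene outside the members is not reported here.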

Additional observations from a re-analysis of the deposited data

Results flagged for a closer look

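Within groups, 11 of the 96 combinations of gene and group held a calf whose gap to its nearest neighbour was large against the group's range. Chance flags about 1 in 20 for each. TR1 calf 5 accounted for 7. It was lowest of the TR1 calves in ATP5MC3 (139 CPM, next 553), MRPS36 (24.6, next 109), SLC25A11 (144, next 359), UQCC1 (18.9, next 48.3) and MRPL22 (17.7, next 25.3). It was highest in SLC25A33 (110 CPM, next 18.1) and SLC25A28 (35.0, next 22.5). TR3 calf 3 was highest of the TR3 calves in SLC25A1 (102 CPM, next 37.2), SLC25A28 (25.5, next 17.1) and SLC25A13 (18.0, next 12.5). TR3 calf 7 was highest in SLC25A53 (4.26 CPM, next 2.94).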

How the results depend on the processing

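With any 1 calf left out, the median over the members ran from -0.13 to 0.044 for TR1, from -0.16 to -0.053 for TR2 and from -0.022 to 0.056 for TR3. The TR1 value of 0.044 was a reversal and came without TR1 calf 5. In TR3 the median was negative without TR3 calf 3 (-0.022), and also without TR1 calf 5 (-0.015, with 12 members positive and 12 negative). Members called stayed at 0 for sex and 0 for dam age under every alternative that was run: DESeq2, library size, no filter, a robust fit, other covariates where they apply, without TR2 calves 1, 9 and 10, without the 4 calves high in NAMPT, and each calf left out. The correlated pairs numbered 5 to 6 with any 1 calf left out. The correlation of SLC25A33 and SLC25A36, not past the threshold, was reversed without the 2 farthest calves (-0.13) and without TR1 calf 5 (-0.17), the lowest of -0.17 to 0.19 with any 1 calf left out. That of MRPL15 and MRPL48 was no longer past it without adjustment for group, sex and dam age (0.32), without the 2 farthest calves (0.17), without TR1 calf 5 (0.32), without TR2 calf 8 (0.31) and without the 4 calves (0.27), an alternative chosen after seeing the data, which also took that of SLC25A33 and NAMPT below it (0.34). Members past 1.5 on the standardized scale numbered 16, 12 and 7 without the filter. No paired analysis was possible because calf numbers were given in the order of the samples and pair no calves. Total counts near 14121365.5, the median calf, leave members near 2 CPM, such as SLC25A53, with the least precision.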
